A study of Mus musculus with 8 samples.

Results

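Fat cell marker genes, 9 in number, were followed through every RNA-seq library of whole mouse ovary: *Pparg*, *Adipoq*, *Lep*, *Cfd*, *Plin1*, *Cidec*, *Fabp4*, *Car3* and *Klb*. They are 9 of the 24823 genes in the count table and were found by joining its NCBI gene IDs to mouse symbols. The genes were chosen by their read counts in these same libraries, in the contrast of cKO against CON, so their difference between genotypes is given as a description, and no p is given for it.

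Ovaries were collected on postnatal day 4 (PND4) from conditional knockout females (cKO) and from littermate controls (CON), with 4 libraries per genotype. The cKO mice carried floxed alleles of *Nr5a2*, the gene of the nuclear receptor NR5A2 (also LRH-1), together with the *Amhr2*-cre transgene (Nr5a2 f/f; Amhr2-cre Tg/+), and the CON mice carried the same floxed alleles without Cre (Nr5a2 f/f), all on a C57BL/6 background. Recombination removes exons 4 and 5 of *Nr5a2* in cells that use the *Amhr2* promoter, which the study places in granulosa cells and surface epithelium. The study also cites reports that this Cre allele is active in the female gonad before birth. Which other cells of the cKO ovary keep the gene was not tested. Each library came from 1 animal, and libraries carry the column numbers of the count table (cKO 1 to cKO 4 and CON 1 to CON 4), because the column names give the genotype and do not show which animal was which.

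A fat cell stores triglyceride in a large lipid droplet, coats that droplet with its own proteins, takes up and releases fatty acids, and secretes hormones into the blood. The nuclear receptor PPARG and the C/EBP factors switch on this program. In the adult mouse the ovary lies in a bursa beside the periovarian fat pad, and fat cells are not among the cell types for which the ovary itself is known. How much tissue beside the ovary was collected with it is not given in the sources used here.

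Libraries held between 14649243 and 29066847 reads assigned to genes, and values below are CPM, reads scaled to library size with TMM factors. Summed CPM of 8 oocyte genes lay between 679 and 1085 in cKO libraries and between 489 and 699 in CON libraries, and summed CPM of 6 granulosa genes lay between 502 and 616 in cKO libraries and between 484 and 613 in CON libraries, so both defining ovarian cell types were present in every library. *Nr5a2* itself went against the labels at the level of the whole gene: the libraries labelled cKO had 31.0, 23.1, 27.9 and 27.8 CPM, and the libraries labelled CON had 18.4, 16.3, 15.0 and 12.2 CPM. The gene count includes exons outside the deleted exons 4 and 5 and does not measure their loss. Library CON 4 stood apart for the fat cell genes, and results are given with and without it.

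Promoters are shown first for members that varied together across libraries, since shared upstream sequence is a property that the choice of genes did not use. Promoters, 10 in all for 7 members, could be taken from RefSeq (build GRCm38.p6), each as the 250 bases before an annotated start, written 5′ to 3′ along the gene. *Fabp4* and *Car3* are named only. Capitals mark matches to the C/EBP motif TTGCNNAA on either strand, and the last sequence has none.

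*Lep* (chr6:29059971-29060220, plus strand): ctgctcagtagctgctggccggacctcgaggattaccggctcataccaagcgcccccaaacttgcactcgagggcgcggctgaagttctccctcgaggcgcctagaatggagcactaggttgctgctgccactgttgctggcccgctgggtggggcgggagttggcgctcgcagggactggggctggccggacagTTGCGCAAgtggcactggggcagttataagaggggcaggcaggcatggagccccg

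*Plin1* (chr7:79732777-79733026, minus strand): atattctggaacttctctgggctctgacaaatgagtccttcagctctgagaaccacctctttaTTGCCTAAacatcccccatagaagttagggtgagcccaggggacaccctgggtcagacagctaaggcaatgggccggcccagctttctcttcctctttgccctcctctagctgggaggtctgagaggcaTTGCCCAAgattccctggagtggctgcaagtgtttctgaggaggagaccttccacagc

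*Cidec*, downstream start (chr6:113434765-113435014, minus strand): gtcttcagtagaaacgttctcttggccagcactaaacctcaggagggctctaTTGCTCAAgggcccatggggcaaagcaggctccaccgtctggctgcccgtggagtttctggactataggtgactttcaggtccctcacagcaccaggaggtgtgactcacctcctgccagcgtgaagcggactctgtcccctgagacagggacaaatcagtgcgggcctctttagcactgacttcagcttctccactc

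*Pparg*, most downstream start (chr6:115421816-115422065, plus strand): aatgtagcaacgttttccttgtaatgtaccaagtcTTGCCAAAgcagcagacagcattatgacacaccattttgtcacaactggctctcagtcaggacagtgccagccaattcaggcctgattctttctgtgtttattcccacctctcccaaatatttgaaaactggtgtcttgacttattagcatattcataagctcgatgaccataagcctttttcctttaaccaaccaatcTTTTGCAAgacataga

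*Adipoq* (chr16:23146286-23146535, plus strand): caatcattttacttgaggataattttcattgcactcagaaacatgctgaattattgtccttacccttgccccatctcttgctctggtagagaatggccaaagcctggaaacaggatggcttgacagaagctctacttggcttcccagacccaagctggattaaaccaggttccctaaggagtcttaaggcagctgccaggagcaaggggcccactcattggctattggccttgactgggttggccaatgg

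The C/EBP motif was found in 4 of the 10 promoters, each of a different member, against 9.56% of the 32851 mouse promoters of the same length in the RefSeq table. In *Lep* it lay 55 to 48 bases before the start. In *Plin1* matches lay 187 to 180 and 58 to 51 bases before the start, in *Cidec* 198 to 191, and in *Pparg* 215 to 208 and 16 to 9. The PPAR-RXR element, a direct repeat of AGGTCA with 1 base between the copies and up to 2 of the 12 repeat bases different, was in none of the 10 promoters, against 3.24% of all promoters. The TATA box TATAAA, sought on both strands, was in 1 of the 10, an upstream start of *Pparg*, against 12.4% of all promoters. There it lay on the strand opposite to the gene, reading TTTATA along the gene. None of these motifs overlapped another in the promoters of the members. A match of letters is a description of the sequence and does not show that a factor binds there.

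Together the 9 genes had 14983 reads, and 11232 of them (75.0%) were in CON 4, a library that held 11.1% of all assigned reads. Summed over the genes, the cKO libraries had 11.3, 8.47, 49.6 and 24.1 CPM, against 15.6, 19.7, 57.0 and 643 CPM in the CON libraries. The level in CON 4 was thus 11.3 times that of CON 3, the next library, while cKO 3 and cKO 4 lay within the span of CON 1 to CON 3, and cKO 1 and cKO 2 below it.

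Every one of the 9 genes was highest in CON 4, where 13.6% of all 15926 genes with at least 50 reads were highest. In each, CON 4 reached at least 2 times the next library (lowest ratio 2.87, median 12.8), a margin that 0.289% of the genes with at least 50 reads had. The next library was CON 3 for 6 genes and cKO 3 for 3 genes, and CON 3 and cKO 3 were the next libraries for 7 genes. No gene had cKO values that all lay below its CON values, a separation that 8.91% of genes with at least 50 reads showed.

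**Figure D1:**
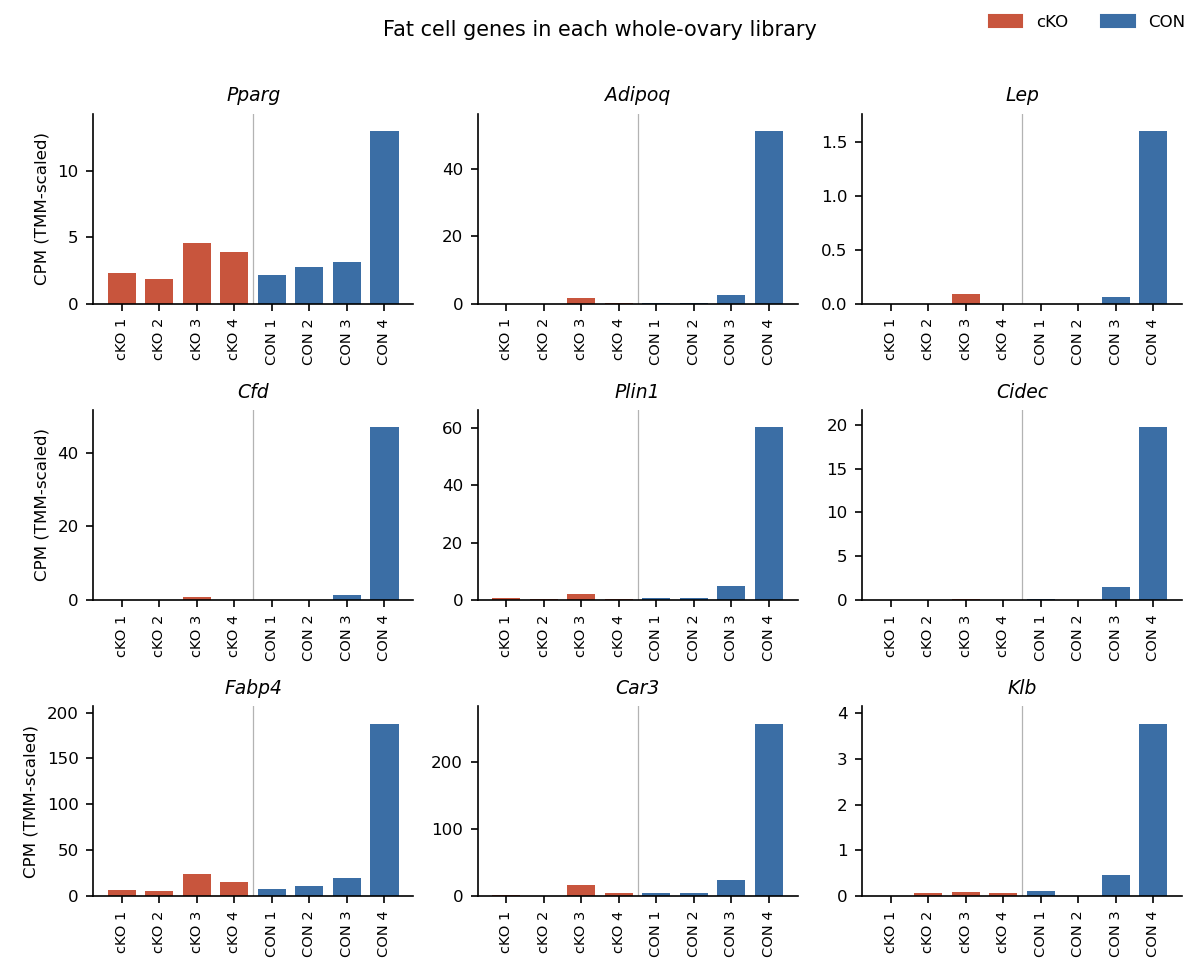
TMM-scaled CPM (linear axes from 0, a scale of its own per gene) of the 9 fat cell genes in each library, cKO libraries in red on the left and CON libraries in blue on the right, 1 bar per library. CON 4 is the tallest bar for every gene, from 1.60 CPM for *Lep* to 258 CPM for *Car3*, and CON 3 and cKO 3 are the next tallest for 7 of the 9.

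*Pparg* (gene ID 19016, chromosome 6, 115360879 to 115490404) encodes the nuclear receptor that drives fat cell formation and is also used outside fat. It had 2.29, 1.87, 4.53 and 3.87 CPM in cKO libraries, against 2.14, 2.78, 3.15 and 12.99 CPM in CON libraries. The genotypes overlapped fully once CON 4 was set aside, and *Pparg* was the gene least concentrated in CON 4, with 35.0% of its reads there (exact 95% binomial interval 31.3 to 38.8%, counting error only, as for all intervals here). The fitted log2 fold change (cKO over CON) of *Pparg* was -0.73 (SE 0.59), and 0.22 (SE 0.32) without CON 4.

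Secreted proteins are encoded by *Adipoq*, *Cfd* and *Lep*. *Adipoq* (11450, chromosome 16, 23146536 to 23157968) encodes adiponectin, a hormone made almost only by fat cells. It had 0, 0, 36 and 1 reads in cKO libraries, against 4, 5, 42 and 894 reads in CON libraries. On the CPM scale these were 0, 0, 1.55 and 0.0691 CPM in cKO libraries and 0.209, 0.176, 2.45 and 51.2 CPM in CON libraries. *Adipoq* was therefore at or near the limit of detection in 5 libraries, low in cKO 3 and CON 3, and high in CON 4. The 2 cKO libraries without a read allow levels of up to 0.120 CPM in cKO 1 and 0.187 CPM in cKO 2, the values of 3 reads.

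*Cfd* (11537, chromosome 10, 79890853 to 79892655) encodes adipsin, a complement protease secreted by fat cells. It had 0, 0, 15 and 1 reads in cKO libraries, against 0, 2, 22 and 821 reads in CON libraries. CON 4 held 95.4% of its reads (93.7 to 96.7%), the highest share among the members, and its 47.0 CPM there was 36.6 times the level in CON 3. *Lep* (16846, chromosome 6, 29060221 to 29073876) encodes leptin, the hormone by which fat stores are signalled to the brain. It had 0, 0, 2 and 0 reads in cKO libraries, against 0, 0, 1 and 28 reads in CON libraries, so its level outside CON 4 could not be told from 0 at this depth. CON 4 held 90.3% of the 31 *Lep* reads (74.2 to 98.0%).

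*Plin1* and *Cidec* encode proteins of the lipid droplet surface. *Plin1* (103968, chromosome 7, 79721164 to 79732904), perilipin 1, guards the droplet against lipases. It had 0.723, 0.249, 2.03 and 0.346 CPM in cKO libraries, against 0.784, 0.527, 4.73 and 60.3 CPM in CON libraries. Outside CON 4 the 2 genotypes overlapped, with CON 3 and cKO 3 highest. The fitted log2 fold change of *Plin1* was -4.16 (SE 1.70) with all libraries and -1.13 (SE 0.89) without CON 4.

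*Cidec* (14311, chromosome 6, 113424634 to 113435760) encodes the protein that fuses small droplets into a large one. It had 1, 0, 2 and 0 reads in cKO libraries, against 1, 0, 26 and 345 reads in CON libraries. Both CON 4 and CON 3 carried *Cidec* reads, and cKO 3 carried almost none although it was next to CON 3 for *Adipoq*. Of the combined reads of *Cidec* and *Adipoq*, *Cidec* made up 5.26% in cKO 3 (exact interval 0.644 to 17.7%), 38.2% in CON 3 (26.7 to 50.8%) and 27.8% in CON 4 (25.4 to 30.4%). For this pair the interval of cKO 3 lay below those of both CON libraries, a comparison of single libraries and not of genotypes. Against *Adipoq* in the same way, *Cfd* made up 29.4% in cKO 3, 34.4% in CON 3 and 47.9% in CON 4, *Plin1* 56.6% in cKO 3, 65.9% in CON 3 and 54.1% in CON 4, *Car3* 91.3% in cKO 3, 90.6% in CON 3 and 83.5% in CON 4, and *Fabp4* 94.0% in cKO 3, 89.0% in CON 3 and 78.6% in CON 4. The interval of cKO 3 overlapped that of CON 3 for *Cfd*, *Plin1*, *Car3* and *Fabp4*, and it lay below that of CON 4 for *Cfd* and above it for *Car3* and *Fabp4*.

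*Fabp4* (11770, chromosome 3, 10204342 to 10208616) encodes the fatty acid carrier of fat cells, which capillary endothelium and macrophages also make. It had 6.75, 5.42, 24.3 and 15.2 CPM in cKO libraries, against 7.89, 10.8, 19.8 and 188 CPM in CON libraries. *Fabp4* was present in all 8 libraries and, outside CON 4, was highest in cKO 3. Its fitted log2 fold change was -2.11 (SE 1.16) with all libraries and 0.02 (SE 0.54) without CON 4.

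*Car3* (12350, chromosome 3, 14863538 to 14872381) encodes carbonic anhydrase 3, abundant in fat cells and in slow skeletal muscle. It had 1.53, 0.872, 16.3 and 4.49 CPM in cKO libraries, against 4.39, 5.31, 23.6 and 258 CPM in CON libraries. *Car3* had the most reads of the 9 genes, 4510 of them in CON 4 and 5644 in all. The fitted log2 fold change was -3.58 (SE 1.60), and -0.88 (SE 0.99) without CON 4. *Klb* (83379, chromosome 5, 65348411 to 65386957) encodes beta-klotho, the co-receptor through which fat and liver cells respond to FGF21. It had 0, 1, 2 and 1 reads in cKO libraries, against 2, 0, 8 and 66 reads in CON libraries, and CON 4 held 82.5% of them (72.4 to 90.1%).

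Divided by the length of all annotated exons, the order of levels in CON 4 was *Car3* (90.1 CPM per kb), *Cfd* (51.0), *Fabp4* (41.9), *Adipoq* (37.0), *Plin1* (12.98), *Cidec* (10.6), *Pparg* (4.40), *Klb* (0.830) and *Lep* (0.478). In the median of the other 7 libraries the order was different, with *Fabp4* (2.41 CPM per kb), *Car3* (1.57) and *Pparg* (0.941) ahead of *Plin1* (0.155) and *Adipoq* (0.127), and with *Cfd*, *Cidec*, *Klb* and *Lep* below 3 reads in most libraries. A length that joins the exons of every transcript gives genes with long minor transcripts a lower value, and 1 library gives no spread between animals for the order in CON 4. For *Fabp4* the joined exons came to 4489 bases, longer than the span of the gene given above, so its place in the order is not settled. Exons of the 9 genes overlapped those of no other gene in the GENCODE annotation.

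Only 4 of the 9 genes (*Plin1*, *Car3*, *Fabp4* and *Pparg*) passed the filter on low counts and entered the edgeR fit of cKO against CON over 15257 genes. Since this contrast was used to choose the genes, counts of calls are given to record how each tool treats these values, and nothing is read from them. None of the 4 reached both an adjusted p under 0.05 and a change of 1.5-fold or more, the limits for a call, beside 0.518% of genes called lower and 0.891% called higher. At an unadjusted p under 0.05 in this fit was 1 of the 4, beside 28.8% of all genes tested. Without a count filter all 9 could be fitted and again 0 were called (2 at an unadjusted p under 0.05, beside 0.785% of genes called in either direction). DESeq2 called 1, *Klb*, beside 2.83% of genes, and withheld a p from 6 of the 9 because of an outlying count. Without CON 4, edgeR fitted 4 of the 9 and called 0 of them, beside 0.306% of genes (0 at an unadjusted p under 0.05). DESeq2 without CON 4 gave no adjusted p for 4 of the 9 and called 0 of the rest, beside 1.81% of genes (1 at an unadjusted p under 0.05). The mean summed CPM was 23.4 ± 18.8 in cKO libraries and 184 ± 307 in CON libraries (SD, n = 4 each), and 30.8 ± 22.9 in CON libraries without CON 4 (SD, n = 3). The log2 ratio of these means was -2.97 with all libraries and -0.40 without CON 4. In whole-ovary RNA fewer cells of a type and less RNA per cell cannot be told apart.

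**Figure D2:**
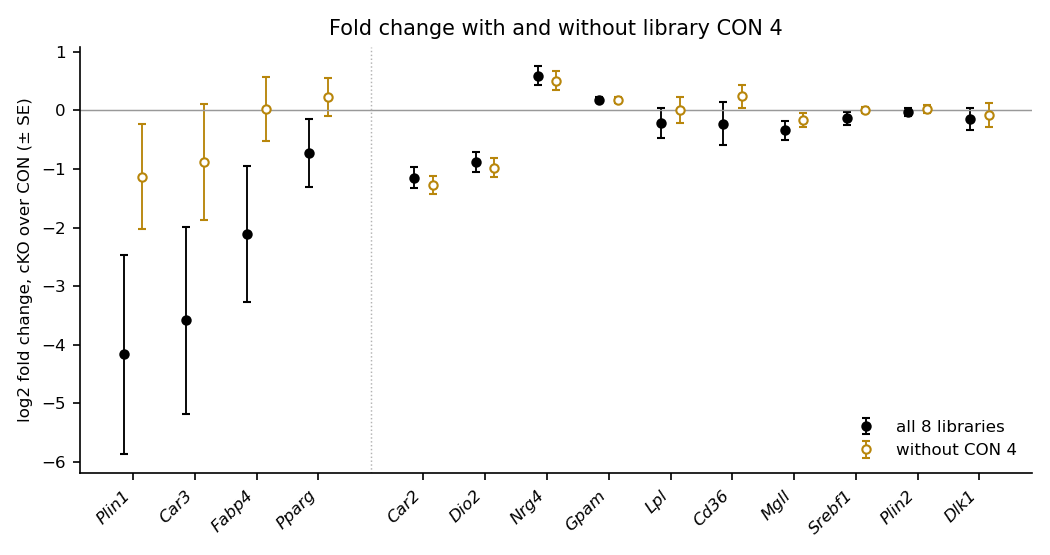
Log2 fold change of cKO over CON (± SE, edgeR) for the 4 fat cell genes that entered the fit (left of the dotted line) and for 10 related genes (right), fitted with all 8 libraries (filled) or without CON 4 (open). *Fabp4* lies at -2.11 with CON 4 and at 0.02 without it, whereas *Car2* lies at -1.15 with CON 4 and at -1.27 without it.

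Fat cell markers that the choice of the 9 genes had not used, 12 in all, were read to describe what the libraries hold. This list was also drawn up with earlier results of these data known, so it is not an independent check. Their summed CPM was 61.8, 48.2, 74.4 and 66.9 in cKO libraries, against 60.6, 69.6, 81.4 and 216 in CON libraries. In 11 of the 12 CON 4 was the highest library and in 8 it reached 2 times the next one, beside 13.6% and 0.289% of genes with at least 50 reads, and none was at 0 in all libraries. *Pck1*, the enzyme by which fat cells make glycerol from small precursors, had 2, 2, 20 and 5 reads in cKO libraries, against 1, 2, 17 and 437 reads in CON libraries. *Plin4*, another droplet coat protein, had 86.3% of its reads in CON 4 (82.6 to 89.5%), and *Retn*, the mouse fat hormone resistin, had 69.7% (58.1 to 79.8%). *Lipe*, hormone-sensitive lipase, was spread more evenly, with 13.3 to 17.1 CPM in cKO libraries, against 13.3 to 15.6 CPM in CON 1 to CON 3 and 52.1 CPM in CON 4. *Adrb3*, the beta-3 adrenergic receptor of fat cells, was the only one of the 12 not highest in CON 4, with 10.4% of its reads there (6.16 to 16.1%). *Slc2a4*, a glucose transporter gene, was close to it, with 14.5% of its reads in CON 4 (13.0 to 16.1%) and 1.03 times the next library. *Thrsp* and *Cebpa* also stayed below 2 times the next library in CON 4, at 1.67 and 1.81 times.

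**Figure D3:**
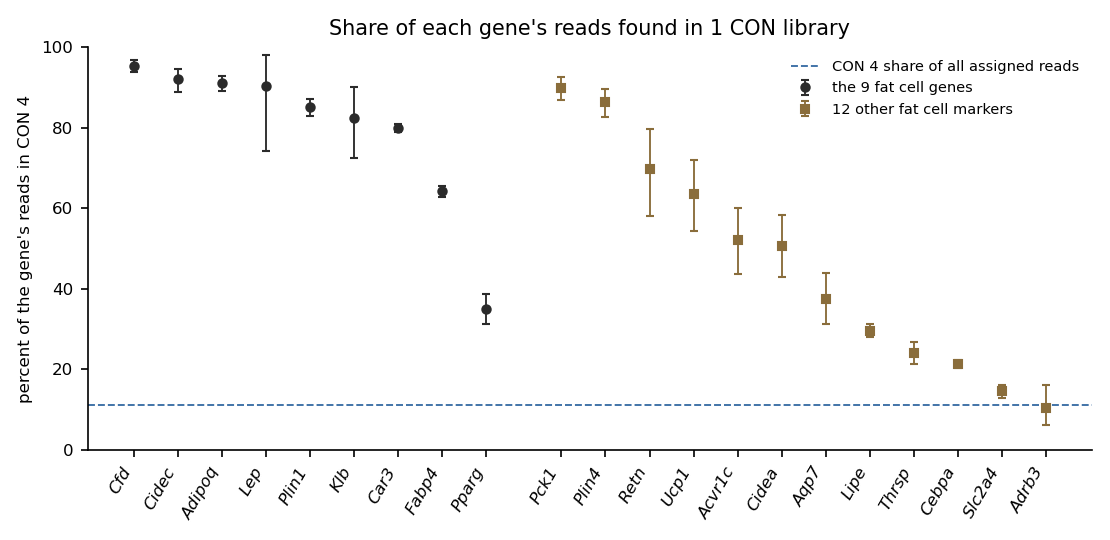
Percent of each gene's reads that were in library CON 4, with exact 95% binomial intervals, for the 9 fat cell genes (circles) and for 12 other fat cell markers (squares); the dashed line is the 11.1% of all assigned reads that CON 4 holds. *Cfd* is highest at 95.4% and *Pparg* lowest of the 9 at 35.0%, while *Adrb3* alone among the markers lies below the line.

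Of the 12 markers, *Ucp1* and *Cidea* mark brown fat, and *Cox8b* and *Elovl3* come from a separate list of brown fat genes. *Ucp1*, which uncouples respiration to make heat in brown fat, had 4.46 CPM in CON 4 and at most 0.872 CPM in any other library. *Cidea*, the droplet fusion protein of brown fat, had 5.04 CPM in CON 4 and at most 0.884 CPM elsewhere. *Cox8b*, a respiratory chain subunit of brown fat and muscle, had 4.46 CPM in CON 4, which was 15.3 times the next library. Per kb of exon the levels in CON 4 were 12.4 CPM for *Cox8b*, 4.52 for *Cidea* and 2.73 for *Ucp1*, against 10.6 for *Cidec*. *Elovl3*, another brown fat gene, had at most 0.176 CPM in any library and none in CON 4. In the same list *Dio2* was highest in CON 2 and *Ppargc1a* in cKO 1.

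Among all genes with at least 50 reads, 46 reached 2 times the next library in CON 4. Of these 8 were among the 9 fat cell genes (*Lep* had too few reads to count), 16 were in a list of fat or other marker genes drawn up here and 22 were in none. The counts of genes so far above the next library in other libraries were 52 in cKO 1, 12 in cKO 2, 2 in cKO 3, 5 in cKO 4, 6 in CON 1, 6 in CON 2 and 14 in CON 3, so CON 4 was not alone in having such genes. Some of the 22 are named here after their values were seen. *Gpd1*, which supplies the glycerol backbone of triglyceride, had 125 CPM in CON 4 against at most 16.9 CPM elsewhere. *Adig*, adipogenin, had 3.49 against 0.351 CPM, and *Mrap*, the accessory protein of the ACTH receptor, had 6.64 against 0.759 CPM. Not all of the 22 were fat cell genes. *Pmp2* of myelin had 4.24 against 1.86 CPM and *Myl1* of muscle had 3.15 against 0.934 CPM. *Angptl7*, which the study names among regulators of vascular development, had 11.7 against 1.78 CPM.

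Genes of other tissues moved in part with the fat cell genes. Summed over 8 nerve genes, cKO libraries had 64.7, 59.2, 82.4 and 60.1 CPM and CON libraries had 59.3, 53.8, 50.7 and 69.7 CPM, with none of the 8 at 0 in all libraries. The highest sums were thus those of cKO 3 and CON 4. *Sox10*, a transcription factor of Schwann cells, had 0.643, 1.495, 8.55 and 3.32 CPM in cKO libraries and 2.51, 1.93, 2.63 and 11.5 CPM in CON libraries. *Mag*, a glycoprotein of myelin named after its values were seen, had 7, 8, 109 and 3 reads in cKO libraries and 6, 12, 6 and 158 reads in CON libraries. For both genes cKO 3 and CON 4 stood apart from the other 6 libraries. Of the enzymes of noradrenaline synthesis, *Dbh* was low throughout but also highest in CON 4 (0.630 CPM) and next in cKO 3 (0.345 CPM). *Th* had 22.7, 19.5, 19.0 and 14.8 CPM in cKO libraries and 15.8, 11.2, 12.8 and 8.41 CPM in CON libraries, with CON 4 lowest. Skeletal muscle genes summed to 43.4 CPM in CON 4 and to 19.1 to 27.4 CPM in the other libraries. The part of these tissues in the values of the fat cell genes was not tested.

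**Figure D4:**
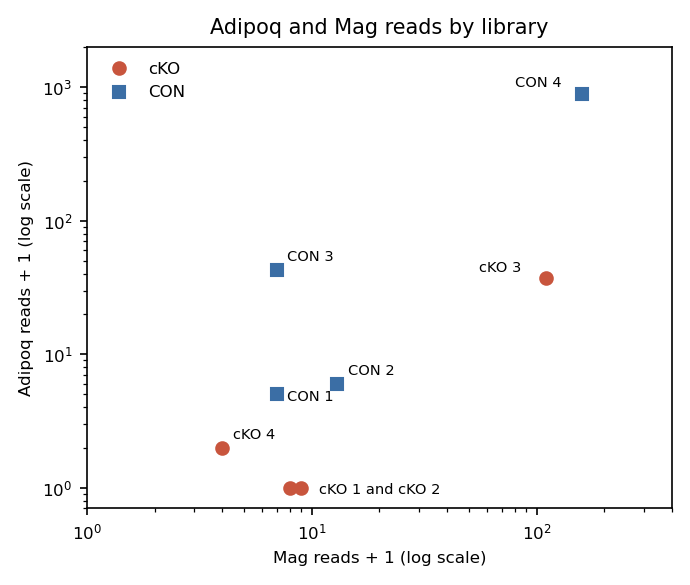
*Adipoq* reads (vertical) against *Mag* reads (horizontal), each plus 1 on a log axis, 1 point per library, cKO as red circles and CON as blue squares. CON 4 is high for both with 894 *Adipoq* and 158 *Mag* reads, cKO 3 has 109 *Mag* but 36 *Adipoq* reads, and CON 3 has 42 *Adipoq* but 6 *Mag* reads.

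The pairing of fat and nerve genes was thus incomplete. At least 2 times above all of the other 6 libraries in both CON 4 and cKO 3 were 21 genes, among them *Mag* and *Pmp2* of myelin, and 0 of the 9 fat cell genes. CON 3, the next library after CON 4 for most fat cell genes, had no raised *Mag* but the highest summed CPM of 13 neutrophil genes (195 CPM, against 121 in CON 1 and 19.6 to 32.6 in the other 6 libraries). Macrophage genes, a cell type that makes *Fabp4*, summed to 301 to 408 CPM in cKO libraries and 297 to 374 CPM in CON libraries, and endothelial genes to 645 to 876 CPM in cKO libraries and 830 to 930 CPM in CON libraries. Their part in the level of *Fabp4* was not tested.

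**Figure D5:**
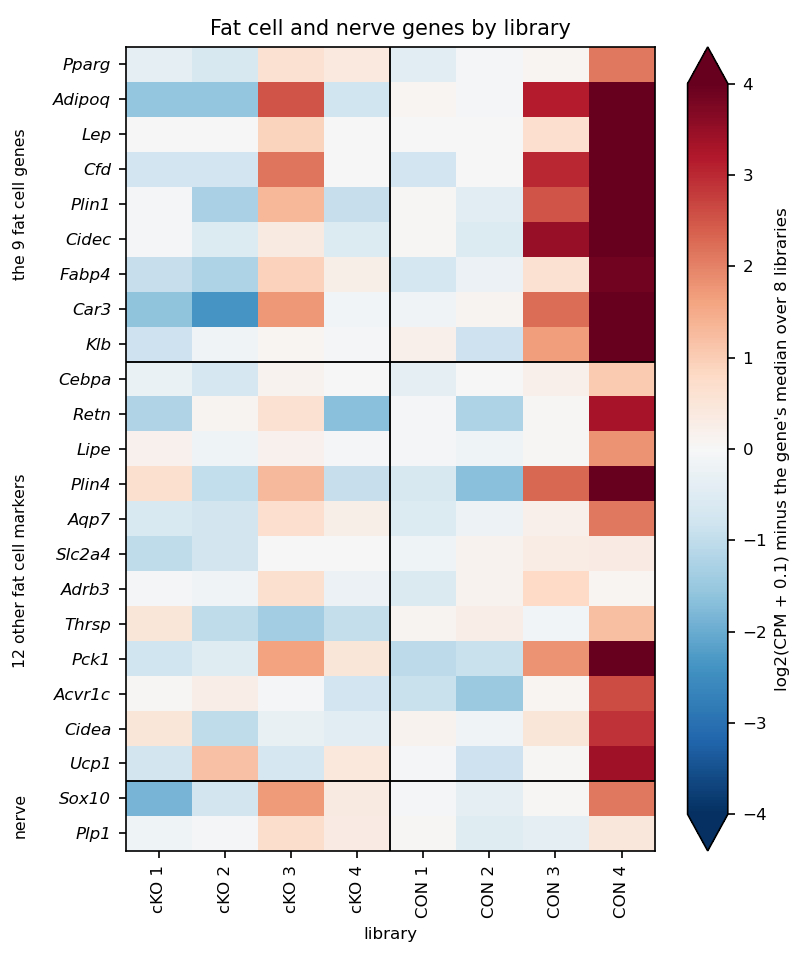
Heat map of log2(CPM + 0.1) minus the median of each gene over the 8 libraries, for the 9 fat cell genes, 12 other fat cell markers and 2 nerve genes (rows) by library (columns, cKO left of CON); colours stop at 4 on either side. CON 4 is red for nearly all fat genes, CON 3 and cKO 3 show a weaker red for *Adipoq*, *Cfd*, *Plin1* and *Car3*, and *Sox10* is red in cKO 3 and CON 4.

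The genes whose pattern over the 8 libraries was most like the summed level of the 9 were, by Pearson's r of log2 CPM among 15918 genes, *Trarg1* (0.98), *Aqp7* (0.98), *Pck1* (0.97), *Cebpa* (0.97), *Ifngr1* (0.97), *Trf* (0.97), *Fabp5* (0.96), *Mfsd12* (0.95), *Ctss* (0.95) and *Lgi4* (0.95). These r values are descriptions over 8 libraries that CON 4 dominates, and without it they lay between 0.79 and 0.91. Sizes differed widely among the 10: *Pck1* in CON 4 was 25.2 times the next library, *Cebpa*, the C/EBP factor of mature fat cells, 1.81 times, and *Ifngr1*, an interferon receptor subunit, 1.16 times.

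The wider fat program was read from 83 further genes in 9 lists, 72 of which were tested in the same fit and which include all of the 12 markers above but *Acvr1c*. Of these 1 was called higher and 2 were called lower in cKO, beside 0.891% and 0.518% of all genes. An unadjusted p under 0.05 was found for 12 of the 72 (16.7%), a lower share than the 28.8% of all genes tested. The median log2 fold change of the 72 was -0.08, against -0.00 over all genes tested, and 0.00 without CON 4. CON 4 was the highest library for 40 of the 83 and reached 2 times the next library for 13. Among all genes with at least 50 reads the shares were 13.6% and 0.289%, whereas the 83 include genes with fewer reads.

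*Car2*, the cytosolic carbonic anhydrase related to *Car3*, fell in cKO. It had 23.1, 18.3, 18.6 and 17.9 CPM in cKO libraries, against 56.0, 36.3, 49.0 and 31.9 CPM in CON libraries. Summed red blood cell lineage genes, which *Car2* joins as the carbonic anhydrase of red cells, had 42.9, 33.1, 31.3 and 28.7 CPM in cKO libraries and 177, 22.0, 104 and 28.9 CPM in CON libraries. CON 1 and CON 3 were thus the highest for both *Car2* and these genes, and their part in the result was not tested. All cKO values of *Car2* lay below all CON values, as for 8.91% of genes, and the log2 fold change was -1.15 (SE 0.18, edgeR adjusted p = 0.0142). *Car3* and its relative thus had different patterns, since CON 4 was the lowest CON library for *Car2* and the highest for *Car3*. The call of *Car2* was lost without CON 2 (edgeR adjusted p = 0.0575) and without CON 3 (0.0650), and without either of these libraries edgeR called 0 of all genes (11 and 13 of the related genes had an unadjusted p under 0.05 without CON 2 and without CON 3). Over all alternatives its adjusted p lay between 3.23e-08, with DESeq2, and 0.123, with edgeR without CON 4 and cKO 3.

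*Dio2*, the deiodinase that activates thyroid hormone in brown fat and other tissues, also fell. It had 6.95, 6.04, 6.91 and 7.81 CPM in cKO libraries, against 10.8, 16.7, 13.3 and 10.02 CPM in CON libraries, and the genotypes did not overlap. Its log2 fold change was -0.88 (SE 0.17, edgeR adjusted p = 0.0224) and -0.98 without CON 4. The call was lost without CON 2 (0.0657), CON 3 (0.0898), cKO 2 (0.0599) or cKO 3 (0.0560), and its adjusted p over all alternatives of edgeR, limma and DESeq2 lay between 0.000152 and 0.123. None of the other 3 brown fat genes that entered the fit was called, and *Ppargc1a*, the co-activator of mitochondrial genes, had 7.06 ± 1.30 CPM in cKO libraries and 7.41 ± 0.98 CPM in CON libraries (SD, n = 4 each).

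*Nrg4*, a growth factor secreted by brown fat, rose. It had 5.38, 5.23, 5.87 and 4.98 CPM in cKO libraries, against 4.18, 3.24, 3.97 and 2.86 CPM in CON libraries, with no overlap, as for 8.70% of genes in this direction. Its log2 fold change was 0.60 (SE 0.16, edgeR adjusted p = 0.0495), and the call was lost in 7 of the 8 fits that left out 1 library, every one but that without CON 1 (edgeR adjusted p up to 0.144, without CON 2). It was also lost with upper-quartile scaling (edgeR adjusted p = 0.0550) and without a count filter (0.0635), in a range of 0.0123 to 0.203 over all alternatives. CON 4, which was highest for all 9 fat cell genes, was the lowest library for *Nrg4*.

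In the other lists no gene was called. Beside the 28.8% of all genes tested, an unadjusted p under 0.05 was found for 1 of the 10 transcription factors tested, 3 of the 14 synthesis genes, 0 of the 10 lipid droplet and lipolysis genes, 3 of the 8 uptake genes, 1 of the 6 progenitor genes and 1 of the 9 receptors and ligands. *Gpam*, the first enzyme of triglyceride synthesis, had 106 ± 2.65 CPM in cKO libraries and 92.9 ± 2.76 CPM in CON libraries (SD, n = 4 each), with an edgeR adjusted p of 0.0374 but a log2 fold change of 0.19, short of a fold of 1.5. The droplet coat genes *Plin2* and *Plin3*, which many cell types use, did not pass, with 103 ± 8.03 CPM of *Plin2* in cKO libraries and 104 ± 6.60 CPM in CON libraries, and with 122 ± 5.32 CPM of *Plin3* in cKO libraries and 128 ± 8.36 CPM in CON libraries (SD, n = 4 each). The fatty acid synthesis enzymes *Fasn* and *Acly* had log2 fold changes of 0.20 (SE 0.10) and -0.05 (SE 0.04). *Lpl*, which frees fatty acids from lipoproteins, and *Cd36*, which carries them into cells, had -0.22 (SE 0.26) and -0.23 (SE 0.36), and 0.00 and 0.24 without CON 4.

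The progenitor list held both abundant and scarce genes. *Dlk1*, an inhibitor of fat cell formation that also marks other fetal and neonatal cells, had 1426 ± 390 CPM in cKO libraries and 1580 ± 208 CPM in CON libraries (SD, n = 4 each), and *Pdgfra*, the receptor that marks fat progenitors and ovarian stroma alike, had 270 ± 39.5 CPM in cKO libraries and 272 ± 18.2 CPM in CON libraries. In CON 4 *Dlk1* was 1.04 times its next library. *Cd34*, a surface protein of progenitors and endothelium, had 348 ± 62.3 CPM in cKO libraries and 365 ± 40.7 CPM in CON libraries. *Pi16*, a marker of early fat progenitors, had 9.08, 4.80, 16.2 and 15.1 CPM in cKO libraries and 15.6, 23.8, 21.0 and 24.2 CPM in CON libraries, with a log2 fold change of -0.90 (SE 0.32) that did not pass (edgeR adjusted p = 0.107). The receptors for the hormones were likewise expressed in all libraries, with 116 ± 5.27 CPM of *Adipor1*, an adiponectin receptor, in cKO libraries and 116 ± 4.51 CPM in CON libraries. *Fgfr1*, the receptor that beta-klotho assists, stood at -0.03 (SE 0.11) on the log2 scale of cKO over CON, and its ligand gene *Fgf21* had at most 0.343 CPM in any library.

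The remaining genes with high levels in these lists did not pass either. Among the transcription factors, *Rxra*, the partner of PPARG on DNA, had a log2 fold change of -0.02 (SE 0.05), *Srebf1*, a factor of lipid synthesis, -0.14 (SE 0.11) and *Cebpb*, an early C/EBP factor, -0.08 (SE 0.13). *Mgll*, a lipase of triglyceride breakdown, stood at -0.34 (SE 0.17) and *Slc27a1*, a fatty acid transporter, at 0.21 (SE 0.08). The secreted proteins *Rarres2* (chemerin), *Nampt* (visfatin) and *Apln* (apelin) stood at -0.13 (SE 0.13), -0.08 (SE 0.08) and -0.22 (SE 0.20). *Cox7a1*, a respiratory chain subunit of brown fat and muscle, stood at -0.29 (SE 0.45), and at 0.25 without CON 4. The fibroblast growth factor receptor gene *Fgfr2*, the PPAR relative *Ppard* and the adiponectin relative *C1qtnf1* stood at -0.05 (SE 0.09), 0.01 (SE 0.06) and -0.01 (SE 0.05).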

How the data were processed

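RNA from whole PND4 ovaries of 4 cKO and 4 CON mice was sequenced from stranded mRNA libraries. The authors removed low-quality reads, aligned the rest to GRCm38/mm10 with STAR and deposited the read counts per gene that featureCounts gave. Tool versions, the annotation and the strand setting are not given in the sources used here. A second deposited table holds the authors' own DESeq2 comparison and normalized values, and was not used.

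The 24823 gene IDs were joined to symbols (99.7% matched). The fit of cKO against CON used edgeR 4.0.16 in R 4.3.3, with TMM factors, its filterByExpr filter, a robust quasi-likelihood F test and Benjamini-Hochberg adjustment over 15257 genes. Calls needed adjusted p below 0.05 with at least 1.5-fold change. With 200 changed genes simulated on these libraries, the test recovered 93% of genes changed by a fold of 2. Recovery was counted at an adjusted p below 0.05 without the fold limit. Every simulated gene had the same dispersion and no outlying library, so this share does not apply to genes that 1 library dominates. The design did not pair or batch the libraries, and each counts as 1 animal. Intervals of shares are exact (Clopper-Pearson, 95%).

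The 9 genes, the gene lists and the tests were chosen with earlier results of these data known. Named are all 9 genes, in each list the 3 genes with the highest mean CPM and every called gene, for marker lists their sums, and the 10 genes most alike in pattern (prior count 2, at least 50 reads). *Pck1*, *Plin4*, *Retn*, *Lipe*, *Adrb3*, *Slc2a4*, *Thrsp*, *Ucp1*, *Cidea*, *Elovl3*, *Cox8b*, *Pi16*, *Gpd1*, *Adig*, *Mrap*, *Sox10*, *Th*, *Dbh*, *Mag*, *Pmp2* and *Fgf21* were named after their values were seen. Results for a further gene are not reported here, and it was left out of the nerve list and of the count of genes high in both CON 4 and cKO 3.

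Alternatives were scaling by RLE, by upper quartile or by library size alone, leaving out the count filter, at least 10 counts in every library, DESeq2 1.42.0, voom of limma 3.58.1, no fold threshold, a prior count of 0.5, CPM per library total, and leaving out each library. Leaving out CON 4 and cKO 3 together, and DESeq2 without CON 4, were added after seeing the data.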

Additional observations from a re-analysis of the deposited data

Results flagged for a closer look

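In a group of 4 libraries, the gap between the highest or lowest value and its neighbour, divided by the range of the group, was set against Dixon's 95% critical value, which chance exceeds in about 1 in 20 groups. Of 100 groups examined, 21 exceeded it. The 9 fat cell genes had been chosen with these counts in view, so their 12 gaps repeat what chose them and are given as a description. Of the 82 groups without these genes, 9 exceeded the value, 6 of them by a high CON 4.

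In the 9 fat cell genes the gap between CON 4 and the other CON libraries was 0.955 for *Adipoq*, 0.93 for *Plin1*, 0.924 for *Car3*, 0.973 for *Cfd*, 0.934 for *Fabp4*, 0.923 for *Cidec*, 0.907 for *Pparg*, 0.964 for *Lep* and 0.876 for *Klb*. Within the cKO libraries, cKO 3 was set apart in the same way for *Adipoq* (0.956), *Cfd* (0.893) and *Lep* (1.0), at far lower levels and for *Lep* from 2 reads.

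The summed fat cell markers that the choice of genes had not used were also apart in CON 4 (0.867), as were the summed skeletal muscle genes (0.863). These lists too were drawn up with earlier results of these data known. Among the related genes, CON 4 was high for *Srebf1* (0.925), a transcription factor of lipid synthesis, *Lpl* (0.9), *Mgll* (0.884), the last lipase of triglyceride breakdown, and *Cd36* (0.83).

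In 3 related genes a cKO library was apart instead. Library cKO 1 was high for *Car2* (0.874) and *Cebpb* (0.839), and cKO 4 was low for *Slc27a1* (0.935), a fatty acid transporter. The source of these gaps was not tested.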

How the results depend on the processing

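The log2 ratio of summed CPM of the 9 genes, -2.97, ranged from -3.65 (without cKO 3) to -0.40 (without CON 4) when each library was left out, and was -1.07 without CON 4 and cKO 3 together. The count of the 9 genes called was 0 in edgeR, limma-voom and every fit without 1 library (0 to 0), and 1 with DESeq2. Genes that a count filter left out could not be called, and 4 of the 9 entered the edgeR fit without CON 4. The count of related genes called, 3, ranged from 0 to 3 when each library was left out (0 without CON 2 or CON 3) and was 0 without CON 4 and cKO 3 together (12 at an unadjusted p under 0.05), where fewer libraries were fitted. Fitted fold changes of *Fabp4* and *Pparg* were negative with all libraries and at 0.02 and 0.22 without CON 4, and the cause was not tested. Of the fitted values of named genes under all alternatives, 74 for the 9 genes stayed within the spread and 4 moved beyond it. The 4 were those of *Plin1*, *Car3*, *Fabp4* and *Pparg* without CON 4, all of the members that entered this edgeR fit. The spread itself includes CON 4, so it is wide. Among the values of related genes, 430 kept their side of the limits and 18 lost a call. The 10 genes most alike in pattern were the same 10 with a prior count of 0.5. No paired analysis was possible because the labels of the 2 genotypes share no replicate numbers and the columns carry none of them. Genes with few reads (*Lep*, *Klb*, *Cidec*) cannot be compared between genotypes at this depth.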
